A study of Mus musculus with 14 samples.

Results

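The RNA of 10 genes for non-fibrillar collagens of the extracellular matrix was followed in mouse hearts. They are Col6a1, Col6a2 and Col6a3 (type VI), Col8a1 and Col8a2 (type VIII), Col12a1, Col14a1 and Col16a1 (types XII, XIV and XVI) and Col15a1 and Col18a1 (types XV and XVIII). They were chosen by name, with earlier results of these data known. All 10 had a row among the 51912 genes of the count tables, and all 10 were among the 15651 genes with enough counts to test. The libraries came from hearts of C57BL/6J mice in 4 groups: 4 Clk3 knockout after TAC and 2 wild type after TAC, all at 10 weeks of age, and 4 Clk3 knockout after sham surgery and 4 wild type after sham surgery, each with 2 libraries at 11 weeks and 2 at 10 weeks. TAC is taken as transverse aortic constriction, which narrows the aorta and loads the left ventricle. Clk3 is a kinase of splicing factors, and the series asks what it does as the heart enlarges. The labels give neither the design of the knockout allele, the sex nor the time after surgery.

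Collagen VI forms beaded microfilaments around cells from 3 different chains, and collagen VIII is a short-chain collagen that builds networks near vessels. Collagens XII, XIV and XVI belong to the fibril-associated collagens, which sit on the surface of collagen I fibrils and link them to other matrix proteins. Collagens XV and XVIII are multiplexins, proteoglycan-like collagens of the basement membrane zone, and the end of collagen XVIII can be cut off as endostatin. In the heart most fibrillar collagen is made by fibroblasts, and pressure load is known to raise it.

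The libraries held 11385818 to 20369637 counts in genes. Clk3 stood at 50.7 to 67.4 CPM, read counts set on a common library size by TMM factors, in the 8 libraries labelled knockout and at 73.2 to 96.0 CPM in 5 of the 6 labelled wild type. The library labelled wild-type TAC 1 had 54.2 CPM. It also had 66.8 CPM of the pseudogene Gm8730, like the knockout libraries (57.4 to 67.1 CPM) and unlike the other wild-type libraries (1.26 to 1.63 CPM). Its genotype label thus goes against these readings, and the comparisons of the 10 genes that use it are also given without it. Nppa, the load-induced natriuretic peptide gene, followed the surgery labels, at 639 to 1119 CPM in knockout TAC and 118 to 235 CPM in knockout sham, and at 1912 and 1808 CPM in wild-type TAC against 104 to 217 CPM in wild-type sham. Cardiomyocyte markers were abundant in all libraries. Whether the libraries are separate animals is not stated in the labels, and the p-values below speak only for the spread among these libraries. In bulk tissue, more cells of a type and more RNA per cell cannot be told apart.

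Per kb of exon, Col6a1 and Col15a1 led in every group. The order depends on the length used, and none per kb of coding sequence is given. Col6a2 has 8.326 kb of exon and 3.395 kb of coding sequence, and Col15a1 has 6.349 and 4.237 kb. Scaled to CPM per kb of exon, the means in knockout TAC hearts ran from 29.9 ± 3.98 for Col6a1 and 25.5 ± 4.76 for Col15a1 down to 0.728 ± 0.54 for Col8a2 and 0.29 ± 0.0976 for Col12a1 (SD, n = 4). In wild-type TAC hearts the same genes had 51.5 ± 4.67, 46.8 ± 9.98, 3.65 ± 1.81 and 1.61 ± 0.432 (SD, n = 2). In wild-type sham hearts they had 29.3 ± 3.33, 20.6 ± 2.39, 0.218 ± 0.145 and 0.141 ± 0.0559 (SD, n = 4). Col6a2 and Col8a1 held the 2 places after Col15a1, Col6a2 being the higher except in wild-type TAC, where Col8a1 had 34.6 ± 20.5 and Col6a2 27.6 ± 6.12 CPM per kb (SD, n = 2), a gap within the spread. The means of Col14a1, Col16a1 and Col18a1 lay within 1.82 to 7.15 CPM per kb in every group, and Col14a1 and Col16a1 overlapped in the knockout groups and in wild-type sham. Col6a1 lay above Col15a1 within each of the 14 libraries, by margins small enough after TAC that the ranges of the pair overlapped in both genotypes. Col8a2 and Col12a1 rest on few reads, 6 to 299 and 12 to 380 counts per library, and the other 8 genes on 150 to 5010.

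TAC hearts had more RNA of these collagens in both genotypes. In knockout hearts 10 of 10 genes were higher after TAC at an edgeR quasi-likelihood adjusted p (Benjamini-Hochberg over 15651 genes) under 0.05, against 6.73% of all genes tested. In wild-type hearts 9 of 10 were higher, against 6.91% of all genes. None was lower in either genotype, where 6.26% of all genes were lower in knockout and 5.3% in wild type. The median log2 fold change of the 10 genes was 0.79 in knockout and 1.22 in wild type, against a median near 0 (-0.01 and 0.00) over all genes. The libraries of TAC and sham did not overlap for 8 of the 10 genes in knockout and for 10 of 10 in wild type, which held for 21.8% and 30.6% of all genes.

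**Figure D1:**
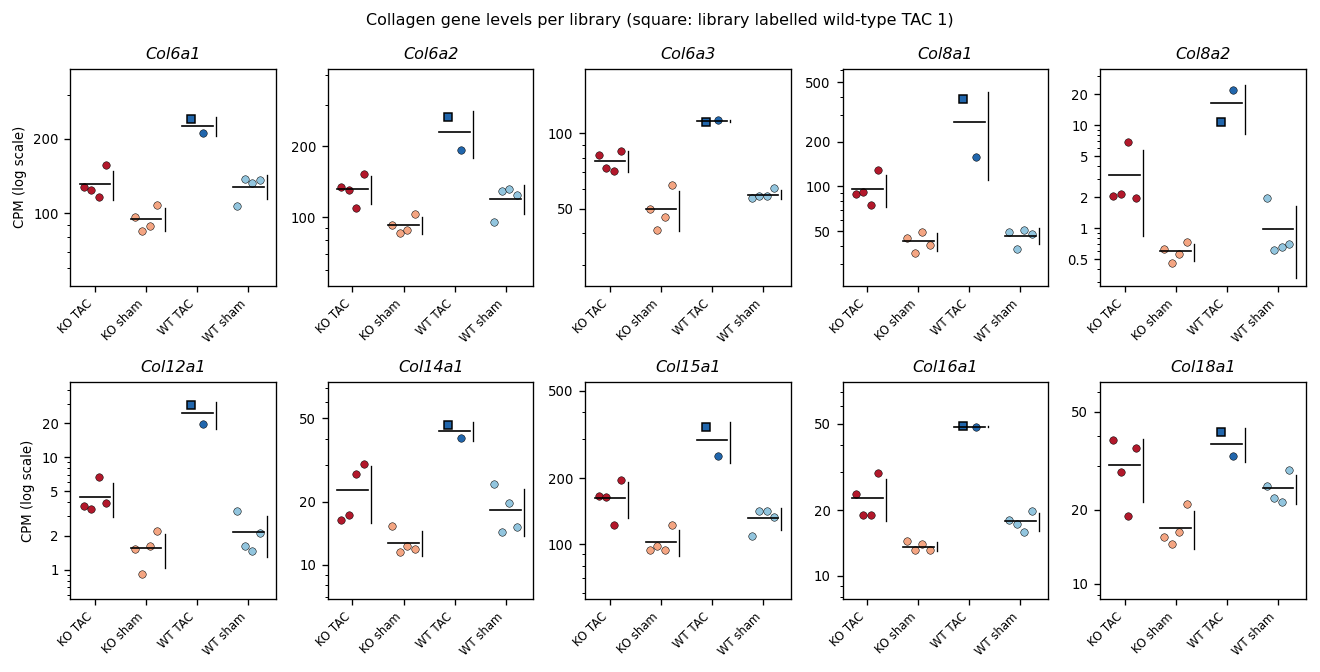
Level of each collagen gene in every library, in CPM on a log axis that differs between panels. Points are libraries, bars the group mean, and the line to the right the SD. Wild-type TAC hearts are the highest group in all 10 panels, at 240.1 and 211 CPM for Col6a1 against 107 to 138 CPM in wild-type sham.

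The 3 type VI genes had the smallest rises of the 10 genes in knockout hearts, and in wild type each of the others rose more than they did except Col18a1, which did not pass. Col6a1 (ENSMUSG00000001119.7, chromosome 10, 76708792 to 76726168, minus strand, GRCm38) had 128, 124, 116 and 156 CPM in knockout TAC hearts, against 96.7, 85.2, 89 and 108 CPM in knockout sham. In wild-type hearts it had 240.1 and 211 CPM after TAC, against 107, 138, 132 and 137 CPM after sham surgery. All TAC libraries lay above the sham libraries of their genotype, by 1.38-fold in knockout (log2 0.47 ± 0.11, SE, edgeR adjusted p = 0.0119) and 1.75-fold in wild type (0.81 ± 0.12, adjusted p = 0.000668). Col6a2 (ENSMUSG00000020241.13) lies 85.2 kb away on the same strand (chromosome 10, 76595762 to 76623630). Its levels were 134, 130.0, 109 and 153 CPM in knockout TAC against 92.8, 85.7, 88.1 and 103 CPM in knockout sham, and 266 and 194 CPM in wild-type TAC against 95.2, 129.7, 131 and 124 CPM in wild-type sham. TAC and sham again did not overlap, with changes of 1.42-fold in knockout (log2 0.51 ± 0.12, edgeR adjusted p = 0.0164) and 1.91-fold in wild type (0.93 ± 0.15, adjusted p = 0.000734). Col6a3 (ENSMUSG00000048126.16, chromosome 1, 90765923 to 90843971, minus strand) encodes the largest of the 3 chains. It had 82, 72.5, 70.6 and 85.5 CPM in knockout TAC against 49.8, 41.2, 46.6 and 62.5 CPM in knockout sham, a 1.55-fold rise (log2 0.63 ± 0.10, edgeR adjusted p = 0.00237). In wild type the values were 111 and 113 CPM after TAC and 55.1, 56.2, 56.3 and 60.4 CPM after sham surgery, a 1.97-fold rise (0.98 ± 0.12, adjusted p = 0.000117). No TAC library of either genotype fell within its sham range for this chain.

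In CPM not scaled by length, Col6a1 and Col6a2 had similar levels (means of 131.2 and 131.5 CPM in knockout TAC). They are also neighbours on the chromosome, so their upstream sequences are shown. RefSeq (GRCm38.p6) gives promoter windows for 8 of the 10 genes, with 2 alternative windows each for Col6a2 and Col18a1. The stretches below are those of the 250 bases before the start that lie outside annotated exons, read 5′ to 3′ on the gene's strand (minus for both), chr10:76726169-76726294 and chr10:76623631-76623880. Capitals mark matches to any of 5 motifs on either strand. The GC box was searched as GGGCGG. The short motif of SMAD proteins, which act in TGF-beta signalling, was searched as CAGACA. For TEAD factors the letters were GGAATG and for AP-1 they were TGANTCA, with N for any base. The TATA box was searched as TATAAA.
Col6a1: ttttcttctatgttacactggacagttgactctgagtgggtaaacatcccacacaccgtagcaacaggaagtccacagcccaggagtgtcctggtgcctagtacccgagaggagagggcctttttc
Col6a2: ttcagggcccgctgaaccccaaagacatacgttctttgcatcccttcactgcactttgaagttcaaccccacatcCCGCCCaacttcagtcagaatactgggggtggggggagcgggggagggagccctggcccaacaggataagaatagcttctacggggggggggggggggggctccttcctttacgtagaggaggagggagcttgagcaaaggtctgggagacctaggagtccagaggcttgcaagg
The Col6a1 stretch held no match. An AP-1 match of its 250 base window lies in the 124 bases left out, which GENCODE places in a Col6a1 exon. The Col6a2 stretch held 1 GC box. The other Col6a2 window, not shown, held 3 GC boxes and 1 TEAD match. Over all 32851 windows in the table, 32.7% held a GC box, 17.1% the SMAD motif, 12.6% the TEAD motif, 6.75% the AP-1 motif and 12.4% a TATA box. Among the 10 windows of these collagens, 6 held a GC box, 2 the SMAD motif, 2 the TEAD motif, 1 the AP-1 motif and 0 a TATA box. These matches describe the letters and carry no evidence on binding.

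Type VIII collagen changed more. Col8a1 (ENSMUSG00000068196.4, chromosome 16, 57624258 to 57754737, minus strand), the chain found beneath vascular endothelium, had 88.6, 91.4, 75.2 and 129.8 CPM in knockout TAC against 45.2, 36.1, 49.7 and 40.4 CPM in knockout sham. In wild type it had 384 and 158 CPM after TAC against 49.5, 38.3, 50.9 and 48.1 CPM after sham surgery. Sham levels overlapped between genotypes, every TAC library was above them, and the library labelled wild-type TAC 1 was far above the rest. The rise was 2.25-fold in knockout (log2 1.17 ± 0.22, edgeR adjusted p = 0.00468) and 5.81-fold in wild type (2.54 ± 0.25, adjusted p = 1.58e-05). Col8a2 (ENSMUSG00000056174.8, chromosome 4, 126286793 to 126314330, plus strand), the other chain of the type and a component of the corneal Descemet membrane, was scarce. It had 2.03, 2.16, 6.9 and 1.98 CPM in knockout TAC against 0.619, 0.46, 0.564 and 0.731 CPM in knockout sham, and 10.7 and 22.1 CPM in wild-type TAC against 1.95, 0.608, 0.657 and 0.701 CPM in wild-type sham. Knockout TAC 3 and wild-type sham 1 stood well above the other libraries of their groups, and TAC still did not overlap sham. Its rise was 5.61-fold in knockout (log2 2.49 ± 0.53, edgeR adjusted p = 0.00799) and 17.8-fold in wild type (4.15 ± 0.49, adjusted p = 7.18e-05). With all libraries these were the largest changes of the 10 genes. Without knockout TAC 3 the knockout value was 1.78 on the log2 scale, still the largest, and without wild-type TAC 2 the wild-type value was 3.53, below the 3.81 of Col12a1. All of these values passed (edgeR adjusted p = 0.0151 for 1.78 and 0.000887 for 3.53). The order of the wild-type TAC libraries differed between the chains, with TAC 1 higher for Col8a1 and TAC 2 higher for Col8a2.

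The upstream stretches of the type VIII genes are shown because both chains of this type rose from unequal levels, chr16:57754738-57754987 (minus strand) and chr4:126286544-126286792 (plus strand), marked as before.
Col8a1: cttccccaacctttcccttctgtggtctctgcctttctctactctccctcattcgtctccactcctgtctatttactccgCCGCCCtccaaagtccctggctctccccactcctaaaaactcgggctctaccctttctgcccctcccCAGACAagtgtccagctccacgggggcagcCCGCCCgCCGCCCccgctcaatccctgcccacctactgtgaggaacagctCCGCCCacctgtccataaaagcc
Col8a2: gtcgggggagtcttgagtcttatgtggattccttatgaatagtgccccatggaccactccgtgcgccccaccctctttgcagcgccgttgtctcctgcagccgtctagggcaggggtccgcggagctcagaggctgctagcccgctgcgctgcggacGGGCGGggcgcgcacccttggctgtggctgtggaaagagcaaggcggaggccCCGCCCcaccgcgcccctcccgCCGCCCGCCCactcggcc
Each had 4 GC boxes in its 250 bases, with overlapping matches counted, and Col8a1 also had 1 SMAD motif. The GC content was 60.8% for Col8a1 and 70% for Col8a2, against a median of 52.4% over all windows.

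The fibril-associated collagens were higher after TAC to very different degrees. Col12a1 (ENSMUSG00000032332.17, chromosome 9, 79598991 to 79718831, minus strand), known from tendon and other loaded tissues, had 3.69, 3.45, 6.63 and 3.9 CPM in knockout TAC against 1.51, 0.919, 1.62 and 2.19 CPM in knockout sham. It reached 29.2 and 19.9 CPM in wild-type TAC against 3.36, 1.64, 1.48 and 2.1 CPM in wild-type sham. The groups were apart in both genotypes, with a 2.85-fold rise in knockout (log2 1.51 ± 0.31, edgeR adjusted p = 0.00632) and an 11.7-fold rise in wild type (3.55 ± 0.30, adjusted p = 3.56e-06). Col14a1 (ENSMUSG00000022371.15, chromosome 15, 55307750 to 55520803, plus strand), a regulator of fibril growth, had 16.3, 17.3, 27.2 and 30.2 CPM in knockout TAC against 15.4, 11.5, 12.3 and 11.9 CPM in knockout sham. In wild type the values were 46.7 and 40.5 CPM after TAC and 24.3, 14.4, 19.8 and 15.1 CPM after sham surgery. The gap was narrow in knockout, where the lowest TAC library lay just above the highest sham library, and wide in wild type. The rise was 1.79-fold (log2 0.84 ± 0.20, edgeR adjusted p = 0.0162) in knockout and 2.38-fold (1.25 ± 0.23, adjusted p = 0.00204) in wild type. Col16a1 (ENSMUSG00000040690.15, chromosome 4, 130047840 to 130099283, plus strand), whose protein binds collagen-receptor integrins, had 23.7, 19, 19.1 and 29.5 CPM in knockout TAC against 14.4, 13.1, 13.9 and 13.1 CPM in knockout sham. It had 48.5 and 48.1 CPM in wild-type TAC against 18, 17.4, 15.9 and 19.8 CPM in wild-type sham. The 2 wild-type TAC libraries were nearly equal here, and the changes were 1.67-fold in knockout (log2 0.74 ± 0.13, edgeR adjusted p = 0.00276) and 2.72-fold in wild type (1.44 ± 0.14, adjusted p = 1.31e-05).

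The multiplexins differed from each other. Col15a1 (ENSMUSG00000028339.17, chromosome 4, 47208161 to 47313167, plus strand), a stabiliser of capillaries and muscle fibres in mice, had 166, 163, 122 and 195 CPM in knockout TAC against 94.6, 98.2, 94 and 123 CPM in knockout sham. In wild type it had 342 and 252 CPM after TAC against 109, 142, 141 and 132 CPM after sham surgery. Knockout TAC 3 fell just below knockout sham 4, the wild-type groups were apart, and the rise was 1.58-fold in knockout (log2 0.66 ± 0.14, edgeR adjusted p = 0.00809) and 2.27-fold in wild type (1.18 ± 0.16, adjusted p = 0.000253). The antisense gene Gm12426 shares 14 exonic bases with Col15a1 and had 67 counts in all libraries together. Whether counting used the strand is not given in the sources used here. Col18a1 (ENSMUSG00000001435.15, chromosome 10, 77052178 to 77166548, minus strand), the source of endostatin, had 38.2, 28.4, 18.9 and 35.5 CPM in knockout TAC against 15.5, 14.5, 16.2 and 21.1 CPM in knockout sham. It had 41.3 and 33 CPM in wild-type TAC against 24.9, 22.2, 21.6 and 28.9 CPM in wild-type sham. Knockout TAC 3 lay within the knockout sham range, and the 2 wild-type TAC libraries lay above the sham libraries. Col18a1 rose 1.79-fold in knockout (log2 0.84 ± 0.19, edgeR adjusted p = 0.011), while in wild type its difference of 0.61 ± 0.22 did not pass (adjusted p = 0.0814). The effect of TAC on Col18a1 was not shown to differ between genotypes, with a difference of 0.23 ± 0.29 (adjusted p = 0.926).

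The calls in knockout hearts changed with the libraries in the fit. The estimates stayed positive and moved by amounts that differed by gene. Over all settings run, the Col8a2 estimate lay between 1.78, without knockout TAC 3, and 2.68, with age as a factor. With all libraries the log2 fold changes ran from 0.47 for Col6a1 to 2.49 for Col8a2. With the 10-week libraries alone, which leave 2 knockout sham libraries, they ran from 0.41 to 2.37 for the same genes, and 0 of the 10 genes were called by edgeR. In that fit 0.065% of all genes were called higher. With age as a factor they ran from 0.41 to 2.68 and 6 of 10 were called, against 2.13% of all genes. The 10-week fit differs in both the age and the number of sham libraries, so their parts cannot be told apart. Col6a2 and Col14a1 lost their calls without knockout TAC 4 (edgeR adjusted p = 0.0604 and 0.0563) and without knockout sham 2 (adjusted p = 0.0599 and 0.0576). In wild type the 10-week libraries alone gave 9 calls, against 3.3% of all genes.

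**Figure D2:**
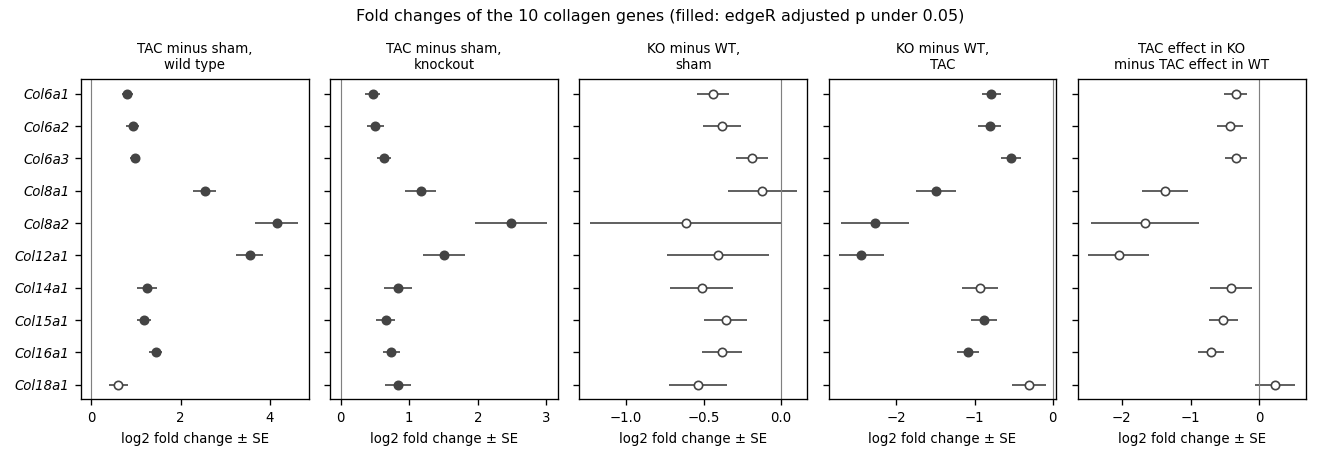
Log2 fold changes of the 10 genes with their SE in 5 comparisons. Filled points have an edgeR adjusted p under 0.05. All 10 are filled for TAC in knockout and 9 for TAC in wild type, none is filled for knockout against wild type in sham, and 8 are filled after TAC.

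In hearts with TAC the knockout group had less collagen RNA than the wild-type group. Of the 10 genes 8 were lower in knockout at an edgeR adjusted p under 0.05, against 1.11% of all genes, and none was higher, against 0.377%. The median log2 fold change was -0.90 over the 10 genes and 0.00 over all genes. Col12a1 was 5.46-fold lower (log2 -2.45 ± 0.28, edgeR adjusted p = 0.000566) and Col8a2 4.86-fold lower (-2.28 ± 0.44, adjusted p = 0.0151). Col8a1 was 2.82-fold lower (-1.49 ± 0.25, edgeR adjusted p = 0.00703) and Col16a1 2.12-fold lower (-1.08 ± 0.14, adjusted p = 0.00105). The type VI chains differed less, with log2 differences of -0.78 ± 0.13 for Col6a1, -0.81 ± 0.15 for Col6a2 and -0.53 ± 0.12 for Col6a3 (edgeR adjusted p = 0.0052, 0.0111 and 0.0426). Col15a1 was 1.84-fold lower (-0.88 ± 0.16, edgeR adjusted p = 0.0131). Col14a1 (-0.93 ± 0.23, edgeR adjusted p = 0.0567) and Col18a1 (-0.30 ± 0.22, adjusted p = 0.563) did not pass. In their levels 9 of the 10 genes had every knockout TAC library below both wild-type TAC libraries, Col18a1 being the exception, and 21.8% of all genes had no overlap between these groups. This comparison and that of TAC in wild type share the 2 wild-type TAC libraries.

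Only 3 of these 8 calls were made without the library labelled wild-type TAC 1. They were Col8a2 (log2 -2.71, edgeR adjusted p = 0.027), Col12a1 (-2.15, adjusted p = 0.0184) and Col16a1 (-1.08, adjusted p = 0.0221), against 0.253% of all genes lower in that fit. That fit has 1 wild-type TAC library, which is assumed to vary like the other groups. The Col8a1 difference moved most, to -0.71 (edgeR adjusted p = 0.204). Wild-type TAC 2 alone lay above all 4 knockout TAC libraries for 9 of the 10 genes, where 54.2% of all genes had no overlap in this comparison of 1 library with 4. The effect of TAC in wild type was called for 9 of 10 genes without that library too, against 1.98% of all genes, with Col8a1 at 1.76 in place of 2.54. A fit of only the 2 TAC groups called 3 of 10, Col6a1, Col12a1 and Col16a1, against 0.362% of all genes. Without wild-type TAC 2 the calls of Col6a3 and Col8a2 were lost (log2 -0.52 and -1.66, edgeR adjusted p = 0.109 and 0.128). Without knockout TAC 3 the Col8a2 difference was -2.99, and without knockout TAC 2 it was not called (edgeR adjusted p = 0.0615). Col6a3 was not called without knockout TAC 1, 2 or 3 (edgeR adjusted p = 0.065, 0.129 and 0.0933), and Col14a1 was called without knockout TAC 4 (adjusted p = 0.023).

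**Figure D3:**
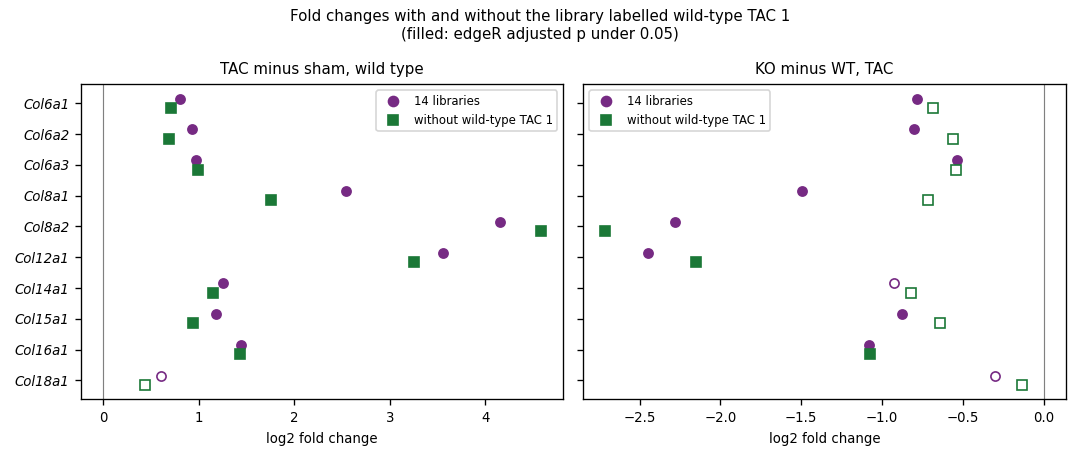
Log2 fold changes of the 10 genes with all 14 libraries (circles) and without the library labelled wild-type TAC 1 (squares), for TAC against sham in wild type and knockout against wild type after TAC. Filled points have an edgeR adjusted p under 0.05. For knockout against wild type after TAC the filled circles number 8 and the filled squares 3.

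In sham hearts no gene passed between the genotypes, and all 10 were estimated lower in knockout. Of the 10 genes edgeR called 0 lower, against 0.313% of all genes, and 0 higher, against 0.575%. All 10 log2 fold changes were negative, with a median of -0.39 against 0.00 over all genes, and 6 had an unadjusted p under 0.05, against 8.49% of all genes lower at that threshold. Without a filter on low counts edgeR called 5 (Col6a1, Col6a2, Col14a1, Col15a1 and Col18a1), against 0.752% of all genes. DESeq2 called 1, Col6a1, against 2.32% of all genes, and edgeR without wild-type sham 1 called 2, Col6a1 and Col6a2, against 1.47%. Col6a1 averaged 94.8 ± 10.2 CPM in knockout sham and 128 ± 14.6 CPM in wild-type sham (SD, n = 4 each), a log2 difference of -0.44 ± 0.11 (edgeR adjusted p = 0.057). Col18a1 averaged 16.8 ± 2.95 CPM in knockout sham and 24.4 ± 3.33 CPM in wild-type sham (-0.54 ± 0.19, edgeR adjusted p = 0.151). Col16a1 averaged 13.6 ± 0.675 CPM in knockout sham and 17.8 ± 1.65 CPM in wild-type sham (-0.38 ± 0.13, edgeR adjusted p = 0.137). Col16a1 and Col18a1 were the 2 genes whose groups did not overlap, against 11.5% of all genes. Col8a1 was nearly level, at 42.8 ± 5.89 CPM in knockout sham and 46.7 ± 5.72 CPM in wild-type sham (-0.12 ± 0.22). Markers of several cell types were mostly estimated lower in knockout sham as well. Fold changes were positive for 1 of 10 fibroblast markers (median log2 -0.25, 6 with an unadjusted p under 0.05), 0 of 10 endothelial markers (-0.22, 4), 2 of 10 smooth muscle and pericyte markers (-0.37, 5) and 1 of 10 macrophage markers (-0.28, 5), and for 7 of 10 cardiomyocyte markers (0.09, 4). Their part in the collagen differences was not tested.

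The TAC effect itself was estimated smaller in knockout than in wild type for 9 of the 10 genes, and edgeR called 0 of these differences. Over all genes it called 0.0192% lower and 0.0% higher. An unadjusted p under 0.05 was reached by 7 of the 10, all with a smaller effect in knockout, against 3.53% of all genes in that direction. Without a filter on low counts edgeR called 2, Col8a1 and Col12a1, against 0.178% of all genes. DESeq2 called 1, Col12a1, against 0.166%. Without wild-type TAC 2 the Col8a1 difference was -1.88. That fit rests on the library labelled wild-type TAC 1 as its only wild-type TAC library, and the genotype of that library is in doubt. The log2 difference between the TAC effects was -2.04 ± 0.44 for Col12a1 (edgeR adjusted p = 0.225), -1.37 ± 0.34 for Col8a1 (adjusted p = 0.303) and -0.70 ± 0.19 for Col16a1 (adjusted p = 0.42). The type VI genes lay at -0.34, -0.43 and -0.34 for Col6a1, Col6a2 and Col6a3. Without the library labelled wild-type TAC 1 the Col8a1 difference was -0.59 and the Col12a1 difference -1.74.

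The proportions of the chains within types VI and VIII, and of the 2 multiplexins to each other, were compared per library as ratios of counts per kb of exon. The Col6a2 to Col6a1 ratio was 0.494 to 0.551 in knockout TAC and 0.5 to 0.529 in knockout sham, and 0.582 and 0.482 in wild-type TAC against 0.469 to 0.523 in wild-type sham. These ranges overlapped throughout. The level of each ratio depends on the lengths used, so only differences between libraries are read from it. Col6a2 has 8.326 kb of exon and 3.395 kb of coding sequence, and Col6a1 has 4.38 and 3.075 kb. The Col6a3 to Col6a1 ratio was 0.2 to 0.235 in knockout TAC against 0.177 to 0.211 in knockout sham, and 0.17 and 0.196 in wild-type TAC against 0.149 to 0.189 in wild-type sham. It was higher in all knockout TAC libraries than in either wild-type TAC library. The Col8a2 to Col8a1 ratio was 0.04, 0.0413, 0.16 and 0.0266 in knockout TAC against 0.0239, 0.0222, 0.0198 and 0.0316 in knockout sham, and 0.0484 and 0.245 in wild-type TAC against 0.0688, 0.0277, 0.0225 and 0.0254 in wild-type sham. Knockout TAC 3 and wild-type TAC 2 stood out with the highest values. The Col18a1 to Col15a1 ratio was 0.14 to 0.208 in knockout TAC and 0.133 to 0.156 in knockout sham, and 0.109 and 0.118 in wild-type TAC against 0.138 to 0.206 in wild-type sham. Both wild-type TAC libraries had a lower value than all other libraries. None of 16 exact two-sided permutation tests passed after adjustment (lowest adjusted p = 0.267). The smallest p the groups allow is 0.0286 for 4 against 4 libraries and 0.0667 for 4 against 2 or 2 against 4. With these floors no adjusted p over the 16 tests could fall under 0.05. The tests therefore could not decide whether a ratio changed, and the ratios are given as a description. Without the library labelled wild-type TAC 1 the log2 difference of the Col8a2 to Col8a1 ratio was 2.92 in place of 1.75 for TAC in wild type and -2.25 in place of -1.08 for knockout against wild type after TAC. Both Col6a2 to Col6a1 differences then changed sign.

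**Figure D4:**
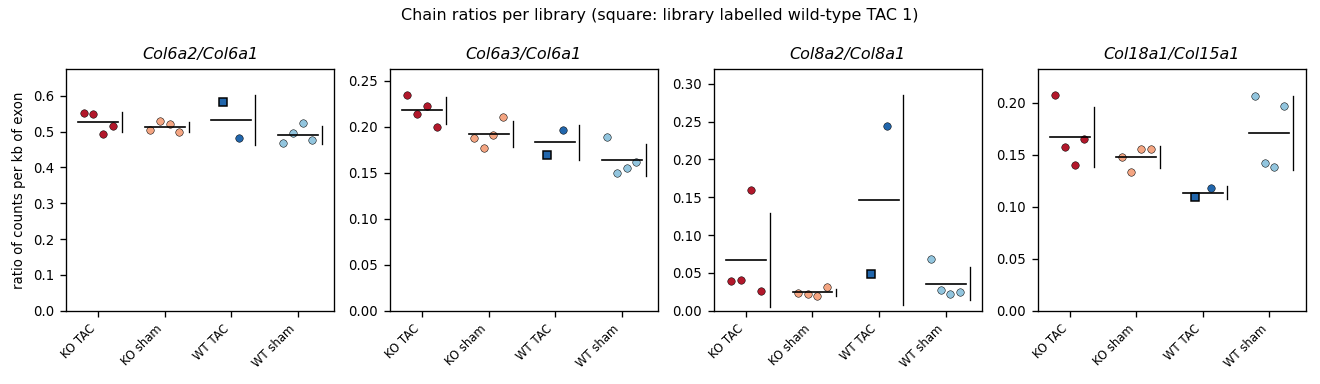
Ratio of counts per kb of exon between 2 collagen chains in every library, with the group mean (bar) and SD (line to the right). The Col6a2 to Col6a1 ratio stays between 0.469 and 0.582, while the Col8a2 to Col8a1 ratio reaches 0.160 in knockout TAC 3 and 0.245 in wild-type TAC 2.

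The files split each gene's counts into a coding and an untranslated part, which gives a further readout. The untranslated share differed widely by gene, from 0.852 to 1.95% of Col16a1 counts to 64.5 to 72.7% of Col8a1 and 59.1 to 80% of Col8a2 counts in knockout TAC hearts. For Col14a1 it was 24.9, 21.9, 30.1 and 22.8% in knockout TAC against 18.3, 16, 17.1 and 17.2% in knockout sham. For Col12a1 it was 37.5, 39.2, 46.7 and 40.7% in knockout TAC against 22.7, 16.7, 21.7 and 33.3% in knockout sham, where a library has as few as 12 counts. For Col15a1 it was 18.8, 18, 25.6 and 18.9% in knockout TAC against 17.7, 15.7, 17.9 and 17.9% in knockout sham. For all 3 every knockout TAC library lay above every knockout sham library (exact two-sided permutation p = 0.0286 each, n = 4 and 4, the smallest possible). None passed over the 40 tests (adjusted p = 0.381). With groups of this size no share could pass after adjustment, so these tests could not decide. How often this separation occurs over all genes was not computed, so the count of 3 has no background to be read against. In wild type the groups overlapped, with Col14a1 at 20.1 and 26.2% after TAC and 22.2, 17.1, 16.1 and 18.6% after sham surgery. Without the library labelled wild-type TAC 1, 4 of the 20 differences in these shares that use it changed sign. The untranslated share of all gene counts was 33.1% to 34.4% in knockout TAC and 33.7% to 34.4% in knockout sham, and highest in wild-type sham 1 at 36.2%, the library with the highest Col12a1 and Col14a1 shares of its group.

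**Figure D5:**
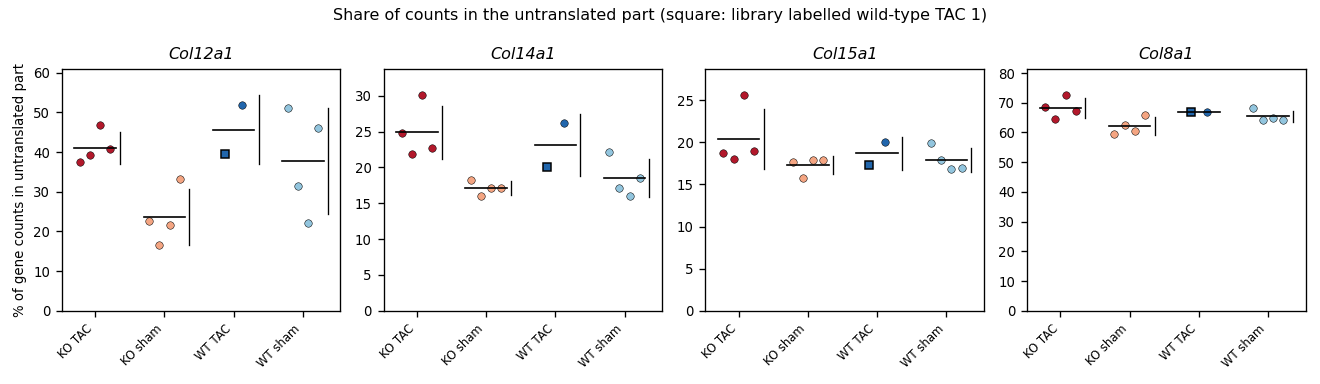
Percent of a gene's counts that fell in its untranslated part, per library, with the group mean (bar) and SD (line to the right). Col14a1 lies at 21.9% to 30.1% in knockout TAC and 16% to 18.3% in knockout sham, and Col8a1 is counted mostly in its untranslated part in every library.

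The profile of each collagen over the 14 libraries was set beside those of all other tested genes. Likeness was measured as the root mean square difference of log2 CPM after centring each gene, so 0 means the same profile. The libraries share depth and group, so this is a description. Col6a1 and Col6a2 were 0.0849 apart, where Col6a1 itself varied by 0.412. The gene nearest to Col6a1 was Mrc2 (0.0818), a receptor that takes up collagen, and Col5a1 (0.0994), a fibrillar collagen that starts fibrils, was also near. Ift122, an intraflagellar transport gene, was near Col6a2 (0.107) and Col15a1 (0.143), and Col15a1 was nearest to Col6a2 (0.114). Col6a3 lay by Trim47 (0.108), the secreted BMP antagonist Nbl1 (0.111) and Pmepa1 (0.112), a target and brake of TGF-beta signalling. Col16a1 lay by Col1a2 (0.113), fibronectin Fn1 (0.149) and Col3a1 (0.155). The measure is not scaled by a gene's own spread, so larger values for more variable genes follow in part from it. That spread was 0.931 for Col8a1, 0.622 for Col14a1, 1.33 for Col12a1 and 1.59 for Col8a2. Col8a1 lay by the microfibril gene Mfap5 (0.245), Itgbl1 (0.27) and Uck2 (0.318), and Col14a1 by the collagen-degrading protease gene Ctsk (0.175), Serpinf1 (0.21) and Ahnak2 (0.236). Col12a1 lay by Pamr1 (0.311), Cilp (0.387) and periostin Postn (0.391), and Col8a2 by the latent TGF-beta binding protein gene Ltbp2 (0.466), Col12a1 (0.49) and Cilp (0.497). Col18a1 lay by Grrp1 (0.171), heme oxygenase Hmox1 (0.178) and Ckap4 (0.186), and its nearest gene among the 10 was Col6a3 (0.24).

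Few other collagens of minor types passed the test. Over all genes 6.73% were higher and 6.26% lower after TAC in knockout, and 6.91% and 5.3% in wild type. After TAC 1.11% were lower in knockout than in wild type. A single gene of 11 lower after TAC is thus near the share over all genes. Of 11 other non-fibrillar collagens tested, 0 were higher and 1 lower after TAC in knockout, and 2 were higher and 1 lower in wild type. The lower one was Col6a6, a further type VI chain. It had 9.88, 7.71, 10.3 and 5.94 CPM in knockout TAC against 12.9, 19.6, 13.1 and 13.8 CPM in knockout sham, and 5.37 and 9.85 CPM in wild-type TAC against 13.3, 18.9, 14.8 and 13.8 CPM in wild-type sham. All TAC libraries lay below the sham libraries of their genotype, opposite to Col6a1, Col6a2 and Col6a3 (0.569 times the sham level in knockout, edgeR adjusted p = 0.0196, and 0.5 times in wild type, adjusted p = 0.0207). Col9a2, a fibril-associated collagen of cartilage, had 6.14 and 1.19 CPM in wild-type TAC against 0.108 to 0.39 CPM in wild-type sham (edgeR adjusted p = 0.00118). Col22a1, of tissue junctions, had 8.52 and 4.67 CPM in wild-type TAC against 0.971 to 2.26 CPM in wild-type sham (edgeR adjusted p = 0.00198). Without the library labelled wild-type TAC 1, edgeR called none of the 11 for TAC in wild type. Knockout against wild type after TAC gave 1 of 11 lower, Col22a1, and 0 without that library.

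The fibrillar collagens that passed changed in the same directions as the 10 genes. Over all genes 6.73% were higher after TAC in knockout and 6.91% in wild type. After TAC 1.11% were lower in knockout than in wild type. Of 9 tested, 5 were higher after TAC in knockout and 8 in wild type (7 without the library labelled wild-type TAC 1), and 5 were lower in knockout than in wild type after TAC (4 without it). Col1a2 of collagen I had 248, 229.6, 252 and 318 CPM in knockout TAC against 169, 149, 144 and 166 CPM in knockout sham, and 632 and 524 CPM in wild-type TAC against 201, 204, 204 and 228 CPM in wild-type sham. Its groups did not overlap between TAC and sham in either genotype. The median log2 fold change of the 9 genes was 0.74 in knockout and 1.47 in wild type, beside 0.79 and 1.22 for the 10 non-fibrillar collagens.

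Genes that make, trim and bind collagen changed in part. Of 26 genes for synthesis and processing, 9 were higher and 2 lower after TAC in knockout, and 8 were higher and 1 lower in wild type (6 and 0 without the library labelled wild-type TAC 1). Over all genes 6.26% were lower in knockout and 5.3% in wild type, near the share of lower genes in this list. The shares higher were 6.73% and 6.91%. Adamts2, which removes the amino-terminal propeptide of procollagen, rose 1.7-fold in knockout and 2.44-fold in wild type. Pcolce, an enhancer of the carboxy-terminal cut, rose 1.53-fold in knockout and 1.78-fold in wild type, and the prolyl 3-hydroxylase gene P3h2 1.68-fold and 2.03-fold in the same order. Of 19 receptors and binding partners, 4 were higher after TAC in knockout and 8 in wild type (4 without that library), and none was lower. Antxr1, a receptor that binds collagen VI, rose 1.29-fold in knockout (edgeR adjusted p = 0.0193) and 1.44-fold in wild type (adjusted p = 0.00495). Bgn, for biglycan, a proteoglycan that binds collagen VI, rose 1.86-fold in knockout (adjusted p = 0.00148 by edgeR) and 2.42-fold in wild type (adjusted p = 0.000116). Fn1 rose 1.89-fold in knockout and 2.62-fold in wild type. After TAC, 3 of 26 and 4 of 19 genes of these lists were lower in knockout than in wild type (2 and 1 without that library).

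Markers of most cell types that could carry these collagens gave summed levels that overlapped between TAC and sham. The summed level of the 10 collagens was 572 to 821 CPM in knockout TAC against 387 to 486 CPM in knockout sham, and 1520.0 and 1092 CPM in wild-type TAC against 488 to 571 CPM in wild-type sham. The summed level of 10 fibroblast markers was 2201 to 2541 CPM in knockout TAC against 1913 to 2278 CPM in knockout sham, and 2543 to 2863 CPM in wild-type TAC against 2048 to 2780 CPM in wild-type sham. The collagen sums did not overlap between TAC and sham in either genotype and the fibroblast sums did. Most of the fibroblast sum comes from Gsn and Dcn (means of 1146 and 638 CPM in knockout TAC), so it says little of the other markers. Taken singly, 5 of 10 fibroblast markers did not overlap in knockout and 7 of 10 in wild type, in either direction. Over all genes this held for 21.8% and 30.6%. At the edgeR threshold 6.73% of all genes were higher and 6.26% lower after TAC in knockout, and 6.91% and 5.3% in wild type. A single call in a list of 10 is near these shares. Among the fibroblast markers 3 were higher and 1 lower after TAC in knockout, and 4 were higher and 1 lower in wild type (3 and 1 without the library labelled wild-type TAC 1). Scara5, a ferritin receptor gene, was the lower one in both, and Pcolce is counted in this list as well. Sums of 10 endothelial markers overlapped too, at 2005 to 2541 CPM in knockout TAC against 1843 to 2230 CPM in knockout sham and 2409 to 2418 CPM in wild-type TAC against 2039 to 2555 CPM in wild-type sham. Of these endothelial markers 10 of 10 had a positive fold change after TAC in knockout and 2 were called, the junction gene Cldn5 (1.67-fold, edgeR adjusted p = 0.0184) and the adhesion gene Pecam1 (1.28-fold, adjusted p = 0.0318), and none was called in wild type. Smooth muscle and pericyte markers also overlapped, at 1873 to 2343 CPM in knockout TAC against 2114 to 2283 CPM in knockout sham and 1849 to 2337 CPM in wild-type TAC against 2073 to 2199 CPM in wild-type sham. Abcc9, a subunit gene of potassium channels, was called lower after TAC in both genotypes (0.75 times the sham level in knockout and 0.68 times in wild type), and was the only call of its list in either, though without the library labelled wild-type TAC 1 the call in wild type was Kcnj8 instead. Macrophage markers did not overlap, at 384 to 478 CPM in knockout TAC against 271 to 376 CPM in knockout sham and 461 to 575 CPM in wild-type TAC against 364 to 383 CPM in wild-type sham. Of the macrophage markers 6 were higher after TAC in knockout and 5 in wild type (1 without the library labelled wild-type TAC 1). Cardiomyocyte markers summed to 38567 to 49191 CPM in knockout TAC against 45351 to 49576 CPM in knockout sham, and to 37428 to 43569 CPM in wild-type TAC against 41208 to 46490.0 CPM in wild-type sham. Among them Ryr2, the calcium release channel gene, was lower after TAC in both genotypes (0.75 times the sham level in knockout and 0.726 times in wild type, not called in wild type without that library), and in knockout Ttn was lower and Actn2 higher. After TAC 3 fibroblast markers were lower and 1 higher in knockout than in wild type (0 and 0 without that library), and none of the endothelial, smooth muscle, macrophage and cardiomyocyte markers passed. In sham hearts 1 fibroblast marker was lower in knockout and none of the other 4 lists had a call. No marker of these lists was at 0 in a whole group, and their part in the collagen differences was not tested.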

How the data were processed

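Poly(A)-enriched RNA of 14 heart samples was sequenced from strand-specific libraries, per the labels' protocols. The authors deposited raw read counts for each gene, and per the file headers the coding and untranslated parts have columns of their own. STAR 2.4.2a, Picard 2.10.3 and bcl2fastq 2.17.1.14 are named in the submitters' processing notes. The columns are laid out as QoRTs, a read counter, writes them, and the version, annotation and strand setting of counting were not given in the sources used here. Reads outside genes and ambiguous reads (15.3% ± 2.42 and 1.52% ± 0.0483, SD, n = 14) were left out. Library pairs within a group differed by more than sampling noise (chi-square per degree of freedom at least 3.43).

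Symbols, positions and lengths came from GENCODE M21 (GRCm38), matched on unversioned identifiers. The 14 libraries entered 1 fit in edgeR 4.0.16 (R 4.3.3), with filterByExpr (minimum count 10), TMM scaling, 1 coefficient per group and the quasi-likelihood test, with p-values adjusted over 15651 genes (36261 not tested, biological coefficient of variation 11.8%). On counts simulated for TAC in knockout, 92 of 100 genes changed 2-fold and 100 of 100 changed 4-fold were recovered. There were 13 false calls in that fit of 15651 genes. Changes under 2-fold, and changes in the 2 wild-type TAC libraries, were not simulated, so the recovery does not speak for them. Ratios and untranslated shares were compared by exact permutation tests. The members and all gene lists were chosen with earlier results of these data known. All 10 members are named, with up to 4 genes of smallest p per list, and the 3 nearest genes to each member (log2 CPM with a prior count of 2, at least 1 CPM on average). The list gene Ctage5 matched no symbol. The alternatives were DESeq2 1.42.0 and its size factors, no filter, coding counts, the 10-week libraries, age as a factor, only the groups compared, and leaving out each library. Replicate numbers were given by accession order and do not pair libraries. Comparisons that share a group of libraries are given side by side and not correlated.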

Additional observations from a re-analysis of the deposited data

Results flagged for a closer look

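There were 4 readings that stood far from the other 3 libraries of their group, by the gap to the nearest library relative to the whole range. Over the 30 groups of 4 libraries examined, about 1 in 20 would be marked by chance. Col8a2 was at 6.90 CPM in knockout TAC 3, where the other knockout TAC libraries had 1.98 to 2.16 CPM. The same library had 6.63 CPM of Col12a1, against 3.45 to 3.90 CPM in the others. It also had the lowest level of its group for 6 of the 10 collagens, Col15a1 and Col18a1 among them. Col8a2 was at 1.95 CPM in wild-type sham 1, while wild-type sham 2, 3 and 4 had 0.608 to 0.701 CPM. Col15a1 was at 123 CPM in knockout sham 4, against 94.1 to 98.3 CPM in the other knockout sham libraries, and that library was the highest of its group for 7 of the 10 genes.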

How the results depend on the processing

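The number of genes called higher after TAC in wild type stayed at 9 or 10 of 10 under every alternative run. After TAC in knockout it was 10, 0 with the 10-week libraries alone, 6 with age as a factor and 8 to 10 when 1 library was left out. For knockout against wild type after TAC it was 8, 3 in a fit of only the 2 groups, and 3 to 9 when 1 library was left out, 3 without the library labelled wild-type TAC 1. For knockout against wild type in sham it was 0, 5 without a filter on low counts, 1 with DESeq2 and 0 to 2 when 1 library was left out, with the 2 calls (Col6a1 and Col6a2) made without wild-type sham 1. For the difference between the TAC effects it was 0, 2 without a filter (Col8a1 and Col12a1) and 1 with DESeq2. It was 0 when 1 library was left out and both wild-type TAC libraries were kept. Without wild-type TAC 2 the Col8a1 difference was -1.88, in a fit whose only wild-type TAC library is the one of doubtful genotype. Fits with fewer libraries have less power by construction, and the other causes were not tested. The share of all genes called moved with the setting too. For knockout against wild type after TAC, 1.11% of all genes were lower with all libraries and 0.362% in the fit of only the 2 groups. For TAC in knockout, 6.73% were higher with all libraries and 0.065% with the 10-week libraries alone. For most fits that left out 1 library this share is not given. No called fold change reversed. No chain ratio or untranslated share passed the threshold in any setting. At these group sizes none could pass after adjustment, so this says nothing of their stability. No paired analysis was possible because the labels give no replicate numbers that pair libraries. With 2 wild-type TAC libraries, 1 of doubtful genotype, the wild-type TAC level is the least certain value. Col8a2 and Col12a1 are limited by depth in sham hearts, with as few as 6 and 12 counts.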
